A study of Sus scrofa with 18 samples.

Results

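Protein phosphatases remove phosphate from proteins that kinases have phosphorylated. In heart muscle, protein phosphatase 1 (PP1) and protein phosphatase 2A (PP2A) act on calcium-handling and contractile proteins, and calcineurin, a calcium-activated phosphatase, acts on the NFAT transcription factors. Tyrosine phosphatases (PTPN, inside the cell, and PTPR, receptor-type) and dual-specificity phosphatases (DUSP) act on kinase cascades, and the metal-dependent PPM1 enzymes form a separate class. The family described here is every gene whose single symbol in the probe table starts with PTPN, PTPR, DUSP, PPP1 to PPP6 or PPM1. It holds 91 probe sets of 59 genes, out of 23935 tested probe sets and 6765 genes. A probe set is a group of short oligonucleotides on the array that reads 1 transcript, and 22 of the 59 genes had 2 or more. The members were 5 PTPN, 4 PTPR, 7 DUSP, 3 PP1 catalytic, 16 PP1 regulatory, 10 PP2A, 3 calcineurin (PPP3), 7 PPP4 to PPP6 and 4 PPM1 genes. Members that belong by symbol alone include PTPRCAP, which binds the leukocyte phosphatase CD45, and PPP1R21, an endosomal protein. The family was proposed because PTPN4 and PPP1R16B had passed the test of failure against baseline, so results of that comparison are given as a description.

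RNA came from right ventricular free wall in 9 pigs, a mix of Hampshire, Yorkshire and Swedish Landrace, with no genetic change stated. Each pig gave a sample at baseline and a sample after coronary arteries had been ligated and the right ventricle had failed, so 18 arrays were measured. For pigs 6, 8, 9, 11, 12 and 13 (label set 1) the failure sample is labelled with 120 min of ischemia. The labels of pigs 5, 10 and 14 give a weight of 30 to 40 kg and a right atrial pressure above 20 mmHg as the sign of failure (label set 2). No animals without ligation were analysed here, so time and surgery cannot be told apart from failure.

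Values are log2 intensities, so a difference of 1 is a doubling. A level compares samples for 1 probe set, and levels of different probe sets were not read as the abundance of 1 gene against another. They served to pick the brightest probe set of a gene, to mark dim ones and to form summed levels. All 8 ventricular muscle markers were measured, with MYH7 at 14.96 ± 0.02 (SD, n = 9) at baseline, and their median change in failure was -0.05. Red blood cell markers were lower in failure in all 5 of 5 genes (median change -0.83) and their summed level, the log2 of the added linear intensities, was lower in 9 of 9 pigs. Atrial muscle markers were higher in 4 of 4 measured genes (median 0.31) and fibroblast markers in 3 of 4 (median 0.07). The limma confidence intervals of MYL4 (-0.36 to 0.65), SLN (-0.04 to 0.66) and NPPB (-0.66 to 1.27) included 0. NPPA changed most, by 1.11 (interval 0.47 to 1.74, adjusted p of 0.43 in limma). Whether the amount of atrial muscle differed was not tested. The difference between the 3' and 5' control probe sets of GAPDH grows when RNA is degraded or incompletely copied. It was 2.61 at baseline and 3.55 in failure in pig 5, and between 0.306 and 2.17 on the other arrays.

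Of the 91 probe sets, 2 passed an adjusted p of 0.05 in the limma fit of failure against baseline, 1 of PTPN4 and the only probe set of PPP1R16B, beside 0.0668% of all tested probe sets (0.0209% higher and 0.046% lower). The other 89 had adjusted p-values from 0.53 upward, so no member lay just outside the threshold. Values deposited with at most 2 decimals need to be set beside these calls. They make up 6.13% of the tested probe sets, and 73.8% of those had an unadjusted p under 0.05 in this comparison, against 1.72% of the probe sets with more decimals. All 16 probe sets called in the whole table were among them. In the family 9 probe sets of 7 genes had at most 2 decimals (DUSP7, PPP1CB, PPP1R16B, PPP1R3B, PPP2R5D and both of PTPN2, with 2 of the 3 of PTPN4). Of these 9, 8 had an unadjusted p under 0.05, against 1 of the other 82, which makes 9 of 91 members beside 6.14% of all tested probe sets. The reason for the 2 formats is not given in the sources used here and its part in the results was not tested.

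PTPN4 is an intracellular tyrosine phosphatase with FERM and PDZ domains. Its brightest probe set read 5.06 in the lowest pig, 5.45 at the median and 6.16 in the highest pig at baseline. In failure it read 5.21, 6.67 and 7.59. The failure values of most pigs lay above the baseline range, but those of pigs 8 and 6 lay inside it, so the groups overlapped. The change within a pig was 1.71 in pig 5, 1.61 in pig 9, 1.54 in pig 13, 1.45 in pig 12 and 1.09 in pig 11. It was 0.86 in pig 10, 0.76 in pig 6, 0.50 in pig 14 and -0.23 in pig 8. PTPN4 was thus higher in failure in 8 of 9 pigs and lower in pig 8. The mean change was 1.03 (limma SE 0.17, 95% interval 0.68 to 1.39), or 2.05-fold.

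The 3 probe sets of PTPN4 gave different sizes. The middle one (mean level 5.01) changed by 0.27 (95% interval 0.08 to 0.47) and was higher in 7 of 9 pigs. The dimmest (mean level 2.73, below the 25th percentile of all means) changed by 0.03, with an interval from -0.10 to 0.17. Averaged over its 3 probe sets, PTPN4 changed by 0.45 (SE 0.08, adjusted p of 0.103 in limma), which ends the call. Leaving out any 1 of pigs 5, 6, 9, 10, 11, 12 or 13 also ended it, with changes between 0.95 and 1.07. With the GAPDH difference as a covariate the change was 0.93 (SE 0.18, adjusted p of 0.145).

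PPP1R16B, also known as TIMAP, is a PP1 regulatory subunit held at the membrane and known for its abundance in endothelial cells. At baseline its probe set read 6.90, 7.57 and 7.90 in the lowest, median and highest pig, and in failure 6.10, 6.79 and 7.52. The groups overlapped, since the highest failure values lay within the baseline range. Within pigs the change was -1.21 in pig 9, -0.80 in pig 10, -0.64 in pig 5, -0.58 in pig 13 and -0.57 in pigs 11 and 14. It was -0.39 in pig 12, -0.36 in pig 6 and -0.22 in pig 8. PPP1R16B was lower in failure in all 9 pigs, the single member with 1 direction in every pig (0.535% of all tested probe sets had that). The mean change was -0.59 (SE 0.09, 95% interval -0.78 to -0.41), 0.663 of the baseline level. Its adjusted p in limma moved past 0.05, to 0.0555 to 0.0680, without pig 5, 10, 11, 12 or 13.

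**Figure D1:**
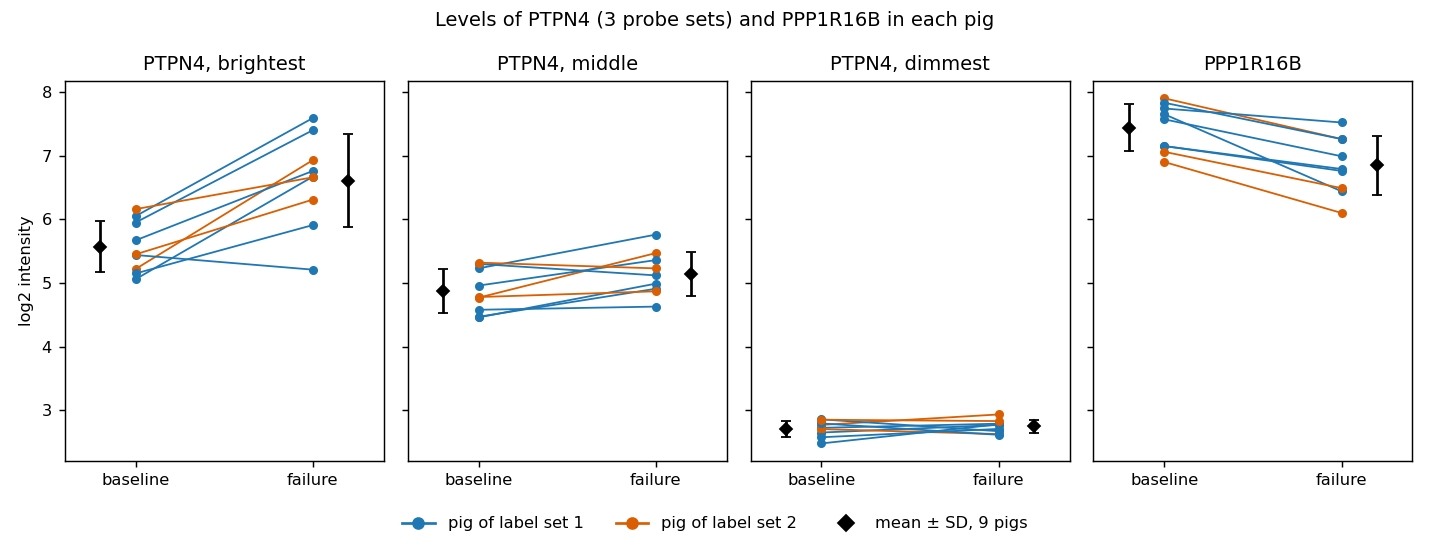
Level of the 3 PTPN4 probe sets and of PPP1R16B (log2 intensity) at baseline and in failure, with 1 line per pig coloured by label set and black diamonds for the mean ± SD over 9 pigs. The brightest PTPN4 probe set is higher in failure in 8 of 9 pigs, the dimmest stays near 2.7, and PPP1R16B is lower in 9 of 9 pigs.

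The markers of endothelial cells had no common direction. Of 10 listed genes 9 were measured, 5 higher and 4 lower, with a median change of 0.01 beside -0.59 for PPP1R16B. Their summed level ran from 10.94 to 11.86 at baseline and from 10.82 to 12.11 in failure, and KDR was below the 25th percentile of all means. In a bulk sample fewer cells of a type and less RNA per cell cannot be told apart. Across pigs, the change of PPP1R16B was lower where the mean change of the 9 endothelial markers was lower. Pearson's r was 0.81 (exact permutation p of 0.0111, 0.122 after Benjamini-Hochberg adjustment over 11 relations, two-sided, n = 9) and Spearman's rho was 0.50 (exact permutation p of 0.178, adjusted 0.467). Without pigs 9 and 14, the farthest from the median, r was 0.56, and the 6 pigs of label set 1 gave 0.87. Label set 2 holds too few pigs for a value. The relation did not pass the adjustment. The mean change of the red blood cell markers was negative in every pig, as the change of PPP1R16B was, though HBB was higher in 3 pigs. With that mean, r was -0.47 (exact permutation p of 0.201, adjusted 0.368, n = 9) and rho -0.67 (p of 0.0589, adjusted 0.324). It gave an r of -0.75 without pigs 8 and 14 and -0.82 in the 6 pigs of label set 1. With the lymphocyte markers r was 0.58 (exact permutation p of 0.112, adjusted 0.330, n = 9) and rho 0.47 (p of 0.213, adjusted 0.467), and r was 0.15 without pigs 6 and 8 and 0.61 in label set 1. With the myeloid markers r was 0.52 (exact permutation p of 0.150, adjusted 0.330, n = 9) and rho 0.47 (p of 0.213, adjusted 0.467), and r was 0.43 without pigs 5 and 9 and 0.82 in label set 1. None of these relations passed the adjustment. The changes of PPP1R16B and PTPN4 chose the family, and that choice favours changes alike in all pigs. The relations of both genes over pigs are therefore a description. The part of these markers in the level of PPP1R16B was not tested further.

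No relation of PTPN4 passed it either. With the change of the GAPDH difference, r was 0.37 (exact permutation p of 0.320, adjusted 0.486, n = 9) and rho 0.27 (p of 0.49, adjusted 0.750), and r became -0.15 without pigs 5 and 13. With the change of PPP1R16B, r was -0.55 (exact permutation p of 0.124, adjusted 0.330, n = 9) and rho -0.70 (p of 0.0433, adjusted 0.324), and r was -0.37 without pigs 5 and 8. With the lymphocyte markers r was -0.53, but 0.54 without pigs 6 and 8 and -0.79 in label set 1. With the red blood cell markers it was 0.16, and 0.83 in label set 1. The myeloid and endothelial markers gave -0.07 and -0.04. For PPP1R16B and the GAPDH difference r was 0.36, and 0.72 without pigs 5 and 13, and this relation did not pass either.

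The rest of the family had small changes. With PTPN4 and PPP1R16B counted, 8 of 91 probe sets moved the same way in at least 8 of 9 pigs, beside 4.19% of all tested. All of these but PPP1R15A were among the probe sets deposited with at most 2 decimals. Outside PTPN4 and PPP1R16B the changes of 87 probe sets ran from -0.29 to 0.27. The 95% interval lay within 0.5 of 0 for 82 of them and within 0.25 of 0 for 52. At the brightest probe set, 24 of 59 genes were higher and 35 lower in failure, with a median of -0.01, while 46.4% of all 6765 genes were higher, with a median of -0.01 too. The median size of the change was 0.0510 over the 91 probe sets and 0.0537 over all tested, and the median SD of the change between pigs was 0.223 against 0.216.

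**Figure D2:**
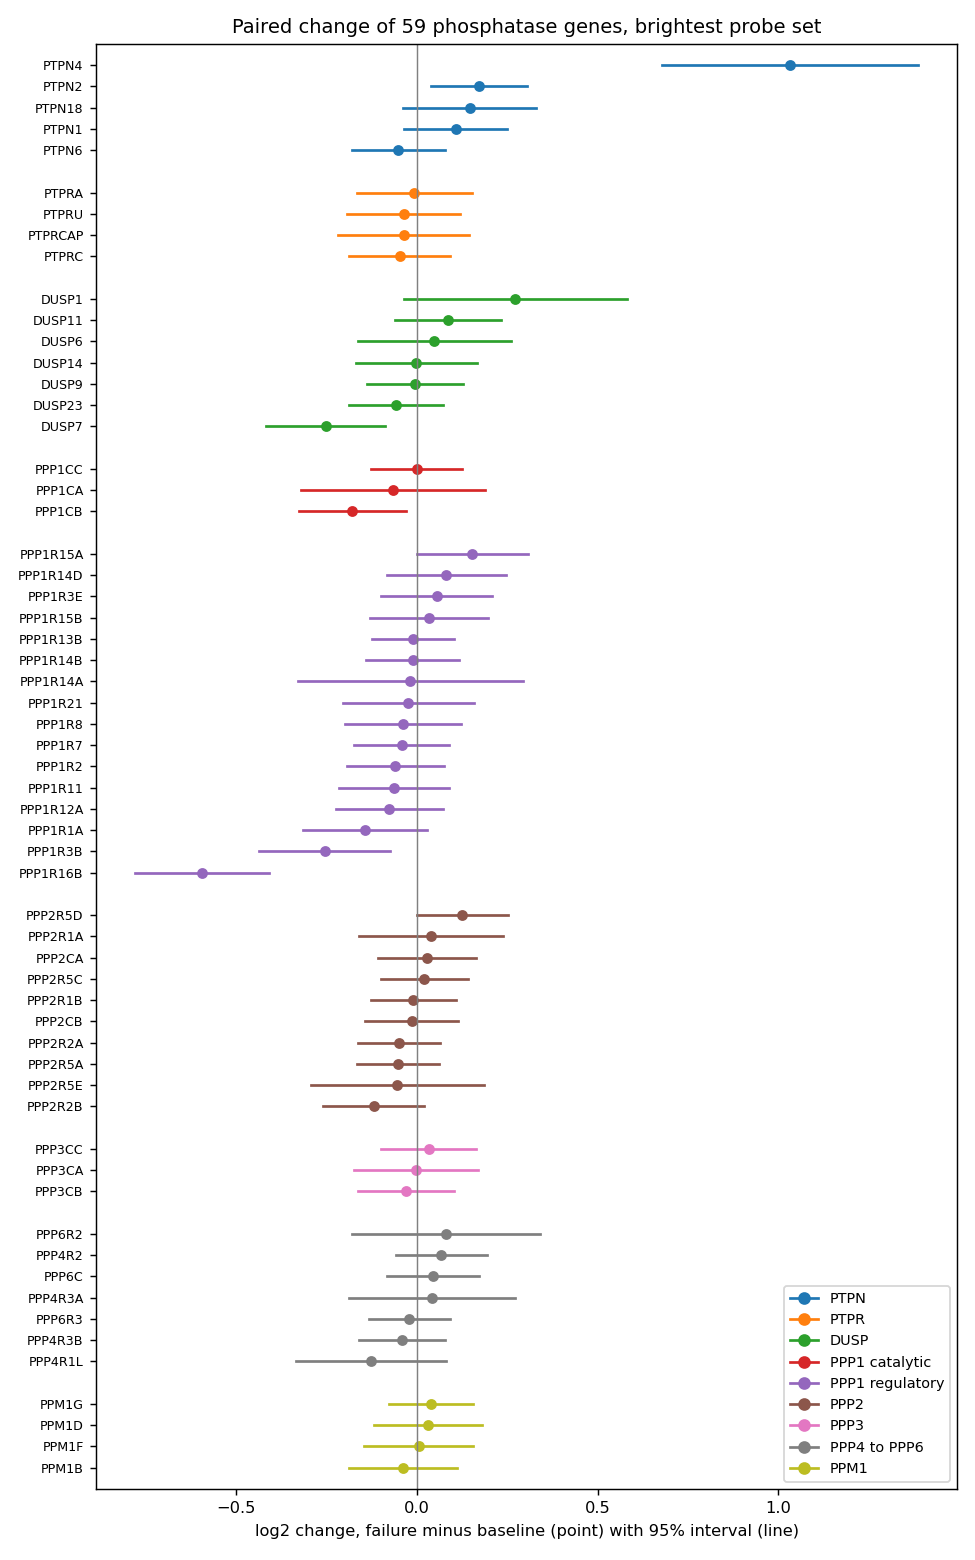
Mean paired change (failure minus baseline, log2) of the brightest probe set of each of the 59 genes, with the limma 95% interval as a line, coloured and grouped by subfamily. PTPN4 at 1.03 and PPP1R16B at -0.59 stand apart, and most other intervals cross 0.

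Among intracellular tyrosine phosphatases 4 of 5 genes were higher at the brightest probe set, with a median of 0.15. PTPN2, which dephosphorylates JAK kinases and STAT factors, was the member whose probe sets matched most closely among those that were higher. Its brighter probe set read 7.76, 8.18 and 8.29 in the lowest, median and highest pig at baseline and 8.14, 8.27 and 8.47 in failure. Both probe sets changed by 0.17, with intervals of 0.04 to 0.31 and 0.03 to 0.31, and each was higher in 8 of 9 pigs, all but pig 10. Neither passed after adjustment over all probe sets. PTPN1, which acts on the insulin receptor, changed by 0.11 at its brightest probe set (interval -0.03 to 0.25) and PTPN18 by 0.15 (interval -0.04 to 0.33). PTPN18 varied more between pigs at baseline (SD 0.71) than its change did (SD 0.29). PTPN6, a phosphatase of blood cells, changed by -0.05 at both of its probe sets.

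All 4 PTPR genes had changes between -0.05 and -0.01 (median -0.04). PTPRC, the leukocyte antigen CD45, changed by -0.05 (interval -0.19 to 0.09), and PTPRCAP by -0.04. Of 12 lymphocyte markers measured, 9 were lower, with a median change of -0.09, and their summed level was lower in 8 of 9 pigs (8.02 to 8.36 at baseline, 7.90 to 8.18 in failure). The myeloid markers had 4 of 6 genes higher (median 0.05). The part of these cells in the PTPRC values was not tested.

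The DUSP genes had a median change of -0.00053, with 3 of 7 higher. DUSP1, an early-response phosphatase of the p38, JNK and ERK kinases, spread widely. It read 9.98, 10.63 and 11.49 in the lowest, median and highest pig at baseline and 10.30, 11.03 and 12.58 in failure. Its changes ran from -0.34 in pig 9 to 1.21 in pig 6, with a mean of 0.27 (interval -0.04 to 0.58). DUSP6, which acts on ERK in the cytoplasm, changed by 0.05 with a range from -0.30 in pig 5 to 0.65 in pig 6. DUSP7, another ERK phosphatase, read 5.34, 5.60 and 5.76 at baseline and 4.92, 5.43 and 5.84 in failure. It was lower in 8 of 9 pigs, with a mean change of -0.25 (interval -0.42 to -0.09, adjusted p of 0.53 in limma). Of the kinases that DUSPs act on, and the kinases upstream of them, 10 of 16 were measured, 4 higher and 6 lower (median -0.02), with MAPK9 lowest at -0.20 (adjusted p of 0.695 in limma).

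The 3 PP1 catalytic genes had a median change of -0.06. PPP1CB, the catalytic subunit of myosin phosphatase, changed by -0.18 at its brightest probe set (interval -0.33 to -0.03, lower in 7 of 9 pigs, adjusted p of 0.703 in limma). PPP1CA changed by -0.06 and PPP1CC by 0.0000111, with intervals of -0.32 to 0.19 and -0.13 to 0.13. PPP1CA was higher in 7 of 9 pigs, with changes of -0.90 in pig 5 and -0.71 in pig 9, and its mean change was 0.04 without pig 5. With 1 pig left out the median of the 3 genes ran from -0.11 to -0.0062.

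Of the 16 PP1 regulatory genes 12 were lower, with a median of -0.03. PPP1R3B, which brings PP1 to glycogen, read 6.28, 6.94 and 8.08 at baseline and 5.58, 6.90 and 7.70 in failure. It changed by -0.25 (interval -0.44 to -0.07) and was lower in 8 of 9 pigs, all but pig 14. PPP1R15A, the stress-induced GADD34 that directs PP1 to the initiation factor eIF2, changed by 0.15, with a higher value in all pigs but pig 9. Its constitutive relative PPP1R15B changed by 0.04 at its brightest probe set, and by -0.03 without pig 5. PPP1R1A, the inhibitor that protein kinase A switches on, changed by -0.14 (interval -0.31 to 0.03, lower in 7 of 9 pigs), and PPP1R2, inhibitor 2, by -0.06. PPP1R14A, an inhibitor of myosin phosphatase known from smooth muscle, changed by -0.02 with a range from -1.0 in pig 9 to 0.46 in pig 8. The smooth muscle list had 3 of 5 measured genes higher (median 0.08). PPP1R12A, the targeting subunit of myosin phosphatase, changed by -0.08 at its brightest probe set.

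The 10 PP2A genes had a median of -0.01, with 4 higher. Catalytic subunits PPP2CA and PPP2CB changed by 0.03 and -0.01, scaffold PPP2R1A by 0.04, and regulatory PPP2R5A by -0.05. The extremes were PPP2R5D at 0.13, a dim probe set (mean level 3.27) higher in 8 of 9 pigs, and PPP2R2B at -0.12. The 3 calcineurin catalytic genes changed by 0.03 (PPP3CC), -0.0027 (PPP3CA) and -0.03 (PPP3CB), with intervals within 0.25 of 0. Of the calcineurin partners, 9 of 17 were measured with 3 higher and 6 lower (median -0.03), and RCAN1, a calcineurin inhibitor that NFAT induces, changed by 0.07 (interval -0.11 to 0.25). Of PP1 and PP2A partners and substrates 17 of 27 were measured with 6 higher and 11 lower (median -0.01), among them phospholamban (PLN) at -0.05 and RYR2 at -0.08. Of the 36 genes of the partner, substrate and kinase lists, 0 had an adjusted p under 0.05 in limma, beside 0.0668% of all tested. MAPK9 alone had an unadjusted p under 0.05, 1 of 36 beside 6.14% of all tested.

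The PPP4 to PPP6 genes had a median of 0.04, from PPP4R1L at -0.13 to PPP6R2 at 0.08, and a median of -0.06 in label set 2 alone. The 4 PPM1 genes changed by -0.04 (PPM1B) to 0.04 (PPM1G). Of 40 other protein phosphatases 16 were measured, 6 higher and 10 lower (median -0.03). SSH1, which activates the actin-severing protein cofilin, was lowest at -0.23 (adjusted p of 0.562 in limma).

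**Figure D3:**
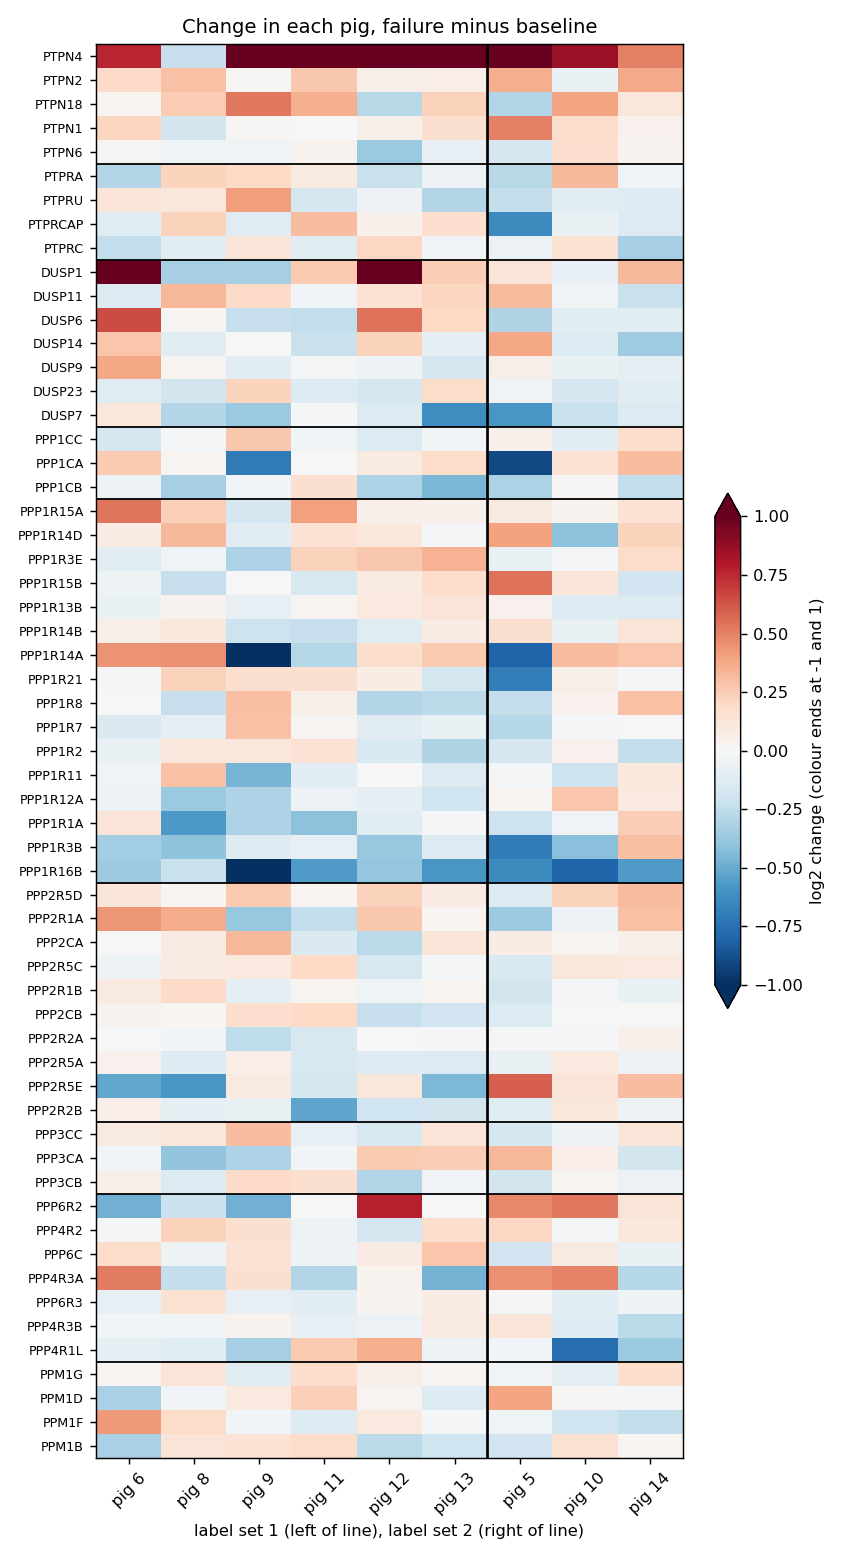
Change in failure (log2, red higher, blue lower, colour ending at -1 and 1) of the brightest probe set of each gene, in rows, for each pig, in columns with label set 1 left of the thick line. PTPN4 is higher in every column but pig 8 and PPP1R16B lower in every column, while DUSP1 exceeds 1 in pigs 6 and 12.

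Probe sets of 1 gene were set side by side, with no test of the difference between them. In 13 of the 22 genes with several, all had the same sign, and the median gap between the highest and the lowest change was 0.0807. The gap was 0.997 for PTPN4, 0.26 for PPM1B and 0.25 for PPP1R12A, against 0.0033 for PTPN2. PPM1B changed by -0.04 at its brightest and 0.23 at its dimmest probe set (interval -0.07 to 0.52).

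**Figure D4:**
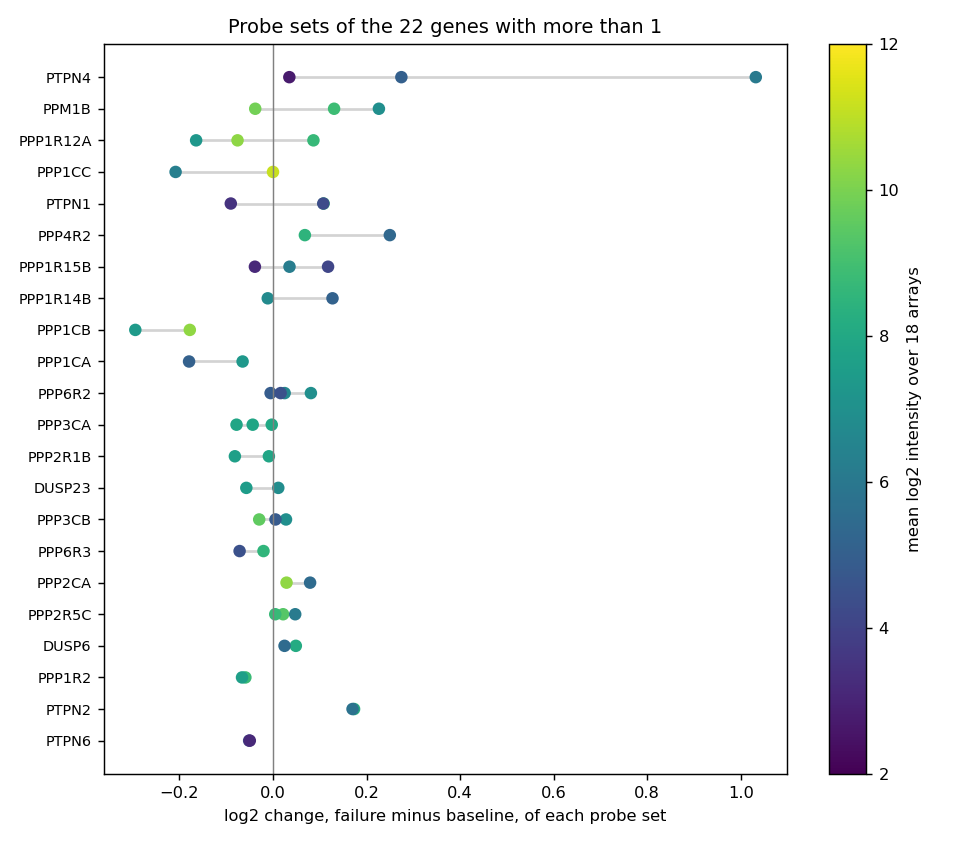
Change in failure (log2) of each probe set of the 22 genes with more than 1, ordered by the gap between them and coloured by mean log2 intensity. PTPN4 spans 0.03 to 1.03, with the smallest change at its dimmest probe set, and the points of PTPN2 lie on each other at 0.17.

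The members were also set against RNA quality. The slope on the GAPDH difference, in log2 units per unit of the difference and with the state in the model, did not choose the family. Of the 91 probe sets 15 had an unadjusted p under 0.05 (16.5%, beside 13.8% of all tested), 11 with a negative slope, and 1 passed an adjusted p of 0.05 in limma (beside 0.769% of all). That 1 was the dimmer probe set of PPP1R2, with a slope of -0.62 (SE 0.12, adjusted p of 0.0408). The share of members with a small unadjusted p was near that of all probe sets. PPP1CC showed the widest contrast between probe sets, with -0.10 (SE 0.11) at the brighter and -1.0 (SE 0.28, adjusted p of 0.146) at the dimmer. The dimmer one read 4.59 in the lowest pig, 6.34 at the median and 7.27 in the highest pig at baseline, and its change ran from -1.64 in pig 13 to 1.04 in pig 9. Those are the pigs with the largest rise (1.182) and the largest drop (-0.44) of the GAPDH difference. For PPP1CB the slopes were -0.26 (SE 0.11) and -0.75 (SE 0.26), for PPP1CA -0.09 (SE 0.23) and -0.65 (SE 0.16), and for PPP2CA -0.05 (SE 0.12) and -0.54 (SE 0.16), the dimmer probe set second in each. The catalytic PPP3CB went the other way, with -0.17 (SE 0.11) at its brightest and -0.02 (SE 0.23) at its dimmest probe set. None of these slopes of catalytic subunits passed the adjustment.

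Pig 5 had the highest GAPDH difference, and its dimmer PPP1CC probe set changed by 0.23 while its GAPDH difference rose by 0.94. Without this pig, 3 member probe sets passed an adjusted p of 0.05 in limma (beside 0.79% of all): the dimmer ones of PPP1CC (-1.48, SE 0.16, adjusted p of 0.00180), PPP1CB (-1.15, SE 0.18, adjusted p of 0.0175) and PPP1R2 (-0.73, SE 0.12, adjusted p of 0.0225). Without any 1 of the other pigs, 0 passed, with 12 to 18 at an unadjusted p under 0.05. In 15 of the 22 genes the slope was lower at the dimmest than at the brightest probe set (medians -0.06 and -0.0034). The same share over all genes was not computed. PPP3CA had a positive slope, 0.35 (SE 0.12), at its brightest probe set. Between states the GAPDH difference changed by 0.237 ± 0.556 (SD, n = 9), higher in 6 and lower in 3 pigs (two-sided exact permutation p of 0.246 over sign flips).

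**Figure D5:**
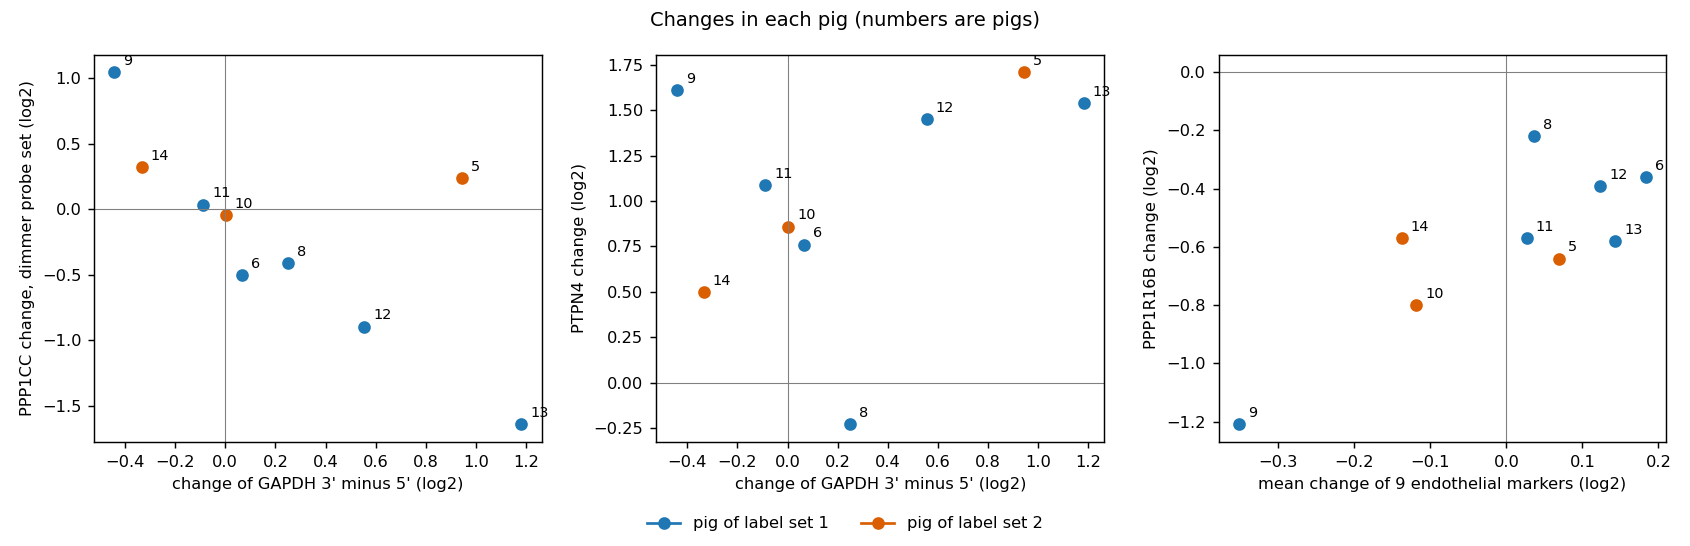
Changes within each pig (failure minus baseline, log2), with points numbered by pig and coloured by label set: the dimmer PPP1CC probe set and PTPN4 against the GAPDH 3' minus 5' difference, and PPP1R16B against the mean of 9 endothelial markers. PPP1CC runs from 1.04 in pig 9 to -1.64 in pig 13, PTPN4 has no such order, and pig 9 is lowest on both axes of the last panel.

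For members other than PTPN4 and PPP1R16B, the response of the 2 label sets could be compared without the choice of the family entering. The changes of those 2 genes chose the family, and that choice favours changes alike in all pigs. Their differences between label sets are therefore a description. No member probe set differed after adjustment (0 of 91, smallest adjusted p of 0.867 in limma, beside 0.0% of all tested), and 6 had an unadjusted p under 0.05 (6.59%, beside 5.67% of all). PTPN4 changed by 1.04 in label set 1 and 1.02 in label set 2, a difference of -0.01 (SE 0.36, 95% interval -0.79 to 0.76). PPP1R16B changed by -0.555 and -0.67, a difference of -0.12 (SE 0.19, interval -0.52 to 0.29). The smallest p belonged to the dimmest probe set of PPP1R12A, with a change of -0.37 in label set 1 and 0.25 in label set 2 (difference 0.62, SE 0.16, unadjusted p of 0.00229). Its other 2 probe sets had differences of 0.32 and 0.30. Without pig 5 the 3 differences were 0.63 (SE 0.19), 0.37 (SE 0.14) and 0.07 (SE 0.16). The next was PPP2R5E, a PP2A regulatory subunit, with a difference of 0.60 (SE 0.18, unadjusted p of 0.00535), which was 0.47 (SE 0.20) without pig 5. Without that pig 4 members had an unadjusted p under 0.05, beside 4.37% of all.

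Levels before ligation were compared in the same way. In the limma test of baseline samples, label set 2 against label set 1, 0 of 91 member probe sets passed after adjustment (smallest adjusted p of 0.262, beside 0.0209% of all), and 14 had an unadjusted p under 0.05 (15.4%, beside 13.9% of all). Of the 14, 10 were lower in label set 2. PPP1R15A was higher there by 0.65 (SE 0.20) and PPP2R1A by 0.37 (SE 0.11). PPP1R12A was lower by 0.66 (SE 0.17) at its dimmest probe set and PPP1R3B by 0.83 (SE 0.25). Without pig 5 these 4 differences were 0.75, 0.34, -0.61 and -0.73, and 10 members had an unadjusted p under 0.05 (beside 8.81% of all) and 0 an adjusted one (beside 0.00836%). PTPRCAP was 0.45 higher in label set 2, and 0.30 without pig 5. The difference of PPP1R16B was -0.23 (SE 0.23) with all pigs. Without pig 5 it was -0.535 (SE 0.19, adjusted p of 0.524 in limma).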

How the data were processed

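Right ventricular RNA of 9 pigs at baseline and in failure was read on 18 Affymetrix 3' IVT arrays from 250 ng of total RNA, per the labels' protocols. The authors deposited log2 intensities per probe set. Partek is named without a version in the submitters' processing notes. How background was corrected and arrays were normalized is not given in the sources used here. An overall shift of transcripts would be hidden if arrays were scaled to each other. Nothing says how many tissue pieces a sample holds. Precision is limited by the number of arrays and pigs.

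Control probe sets (188) were left out. Failure was compared with baseline in limma 3.58.1 (R 4.3.3, lmFit and eBayes) over 23935 probe sets with pig as a block, two-sided, with Benjamini-Hochberg adjustment. The pairing comes from pig numbers in the labels, and deviations from the group means correlated at 0.449 to 0.75 between the samples of 1 animal. The difference between label sets in the response was an interaction term, and their baselines were compared over the 9 baseline arrays. The test of the GAPDH slope and the correlations over pigs were added after seeing the data. In simulated data with normal noise and 200 changed probe sets, 94% of 1.5-fold changes were recovered in the paired test. The interaction recovered 12% and the baseline test 32%. Only 16 probe sets were called in the real paired test, where the adjusted threshold was therefore stricter. These shares do not carry over to the real data. In failure against baseline, the limma intervals of 82 of 87 probe sets outside PTPN4 and PPP1R16B lay within 0.5 of 0. Those intervals leave out a 1.5-fold change. Such a change lay inside the intervals of the dimmer probe sets of PPP1CB (-0.65 to 0.06), PPP1CC (-0.64 to 0.22) and PPP4R2 (-0.15 to 0.65). Between label sets, an uncalled member may still differ by 1.5-fold. A gene was represented by its brightest probe set. Named genes were those with a known role in heart muscle or a cell type, the largest change each way in a subfamily, the smallest p between label sets, the most variable, and those whose probe sets differ most. Of 36 genes of known role, 22 were named in the probe table. PPP1R3B and PTPN18 lie outside this rule and were chosen after their values were seen. The members and lists were chosen with earlier results of these data known. No sequences or coordinates were used. Alternatives covered the block, scaling, dim probe sets, moderation, RNA quality, decimals, probe sets, label sets and each pig left out.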

Additional observations from a re-analysis of the deposited data

Results flagged for a closer look

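Of 183 groups of 9 values (baseline, failure and change of every probe set of 35 named genes), 12 had 1 pig apart from the others by Dixon's test, where chance gives about 9.15. Pig 5, which had the highest GAPDH difference, was the pig apart in 8 of them. It was lowest for PPP1CB at its brightest probe set, at 9.71 at baseline (others 10.29 to 10.78) and 9.39 in failure (others 10.04 to 10.68). It was lowest for PPP2R5E at baseline (6.89, others 7.54 to 8.04), for PPP3CB in failure (9.06, others 9.51 to 9.74 at the brightest probe set), for PPP3CC in failure (8.56, others 9.06 to 9.56) and for a dim PTPN1 probe set at baseline (3.70, others 4.10 to 4.44). It was highest for PTPRC at baseline (4.97, others 4.30 to 4.60), and its PTPRCAP change was the lowest (-0.64, others -0.14 to 0.31). The part of RNA quality in these values was not tested.

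DUSP1 in failure was highest in pig 6 (12.58, others 10.30 to 11.41). PPM1G, a nuclear phosphatase of the PPM1 class, was lowest at baseline in pig 11 (6.51, others 6.76 to 7.02) and highest in failure in pig 14 (7.20, others 6.69 to 6.90). The change of PPP2R2B was lowest in pig 11 (-0.53, others -0.20 to 0.11).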

How the results depend on the processing

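Of the 91 probe sets, 2 passed in failure against baseline as reported. The number was 1 with robust moderation, the mean of all probe sets of a gene, only probe sets above the median, pig as a random block or the GAPDH difference as a covariate. It was 0 without moderation, with label set 1 alone, with label set 2 alone and with no replicate block. Without the block both mean changes stay the same by design (1.03 for PTPN4 and -0.59 for PPP1R16B), and the calls were lost. Leaving out each pig in turn gave 0 to 2. PTPN4 no longer passed at 1.03 with robust moderation, without moderation or above the median, at 1.04 and 1.02 in label sets 1 and 2 alone, at 0.45 as the mean of its probe sets and at 0.93 with the covariate. Each pig left out gave 0.95 to 1.19, with the call in 2 of 9. PPP1R16B no longer passed at -0.555 and -0.67 in label sets 1 and 2 alone, and at -0.59 without moderation or with the random block. Each pig left out gave -0.64 to -0.52, with the call in 4 of 9. For both genes the sign held in every alternative run, but these changes chose the family. The block, the moderation and the filters on level cannot alter the mean change of a probe set, so the sign was fixed there. The PPP4 to PPP6 median was -0.056 in label set 2 alone. The count of probe sets tied to the GAPDH difference ran from 0 to 3 with each pig left out. No member passed in the interaction or between the baselines under any alternative run in limma. The lymphocyte list had no value above the median, since all its genes lie below it. The median of all changes was 0.00034 as reported, 0.0012 after centring and -9.6e-05 after quantile scaling. Dim probe sets limit PTPN4, PPP2R5D and the lymphocyte genes.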
